A study of Mus musculus with 9 samples.

Results

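The genes described here encode the plasma membrane and lysosomal carriers of amino acids, of amino acid-like osmolytes and of the small-molecule neurotransmitters. They were taken as every row of the count table whose gene symbol belongs to the solute carrier families SLC1, SLC3, SLC6, SLC7, SLC36, SLC38 or SLC43. The rule found 66 of 24594 rows. They comprised 7 rows of SLC1, 2 of SLC3, 22 of SLC6, 16 of SLC7, 5 of SLC36, 11 of SLC38 and 3 of SLC43. Of these rows, 35 passed the filter on low counts and were tested, among 13928 tested genes in all.

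The cells were BG2, a line grown from an MMTV-NIC mammary tumour, that is, from a mouse in which the MMTV promoter drives the oncogene Neu together with Cre in mammary epithelium. RNA was sequenced from Sox10 knockout clone 1, from Sox10 knockout clone 2 and from the wild-type bulk population, with 3 libraries of each. Both clones carried the transgene of the wild-type cells and were expanded from a population edited by CRISPR with guides against Sox10, so each knockout genotype here is 1 clone, set against an uncloned population whose library names hold NTC. The labels call the 3 libraries of a group technical replicates, and p-values therefore cover the spread from library to library and no spread between cultures or between clones. Total counts were 65805296 to 83282841 per library. Within each group the first replicate differed most from the others (chi-square per gene 25.5 to 49.2, against 5.48 to 9.98 between replicates 2 and 3), and the calls against wild-type that leaving out a single library changed are named beside their genes. Sox10 had at most 6 counts in any clone library and 16660 to 26038 counts in the wild-type libraries.

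Amino acid carriers work in layers. Sodium-driven carriers of the SLC1, SLC6 and SLC38 families load cells with neutral and acidic amino acids, and exchangers of the SLC7 family then trade these for large neutral, cationic or cystine substrates. Most SLC7 exchangers reach the membrane only as a light chain bound to the heavy chain Slc3a2, while proton-coupled SLC36 carriers and some SLC38 carriers act at the lysosome and report amino acids to the growth kinase complex mTORC1. In tumours of the breast the large neutral and glutamine carriers are among the most studied members, and the carriers of glutamate, glycine, GABA and monoamines are best known from brain.

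More transporter transcripts were higher than lower in each clone. A gene counted as called at a Benjamini-Hochberg adjusted p under 0.05 in edgeR's quasi-likelihood test, adjusted over all 13928 genes. In clone 1 against wild-type, 25 of the 35 tested rows (71.4%) were called higher, where 37.9% of all tested genes were, and 3 (8.57%) were called lower, where 38.6% of all tested genes were. In all, 28 were called in clone 1 (76.5% of all tested genes) and 28 in clone 2 (74.4% of all). In clone 2 against wild-type, 21 (60%) were called higher and 7 (20%) lower, with 37.3% and 37.1% of all tested genes. The 35 rows include Slc7a6os, which is not a carrier. Without it, 24 of 34 carriers (70.6%) were called higher and 3 (8.82%) lower in clone 1, and 21 (61.8%) higher and 7 (20.6%) lower in clone 2. The median log2 fold change of the 35 rows was 1.19 in clone 1 and 0.37 in clone 2, and that of all tested genes was 0.00248 in clone 1 and -0.00267 in clone 2. These counts cover only members that passed the filter, and a member at 0 in 1 group could pass only through the groups where it was high.

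Both clones were set against the same wild-type libraries, so their calls are not independent of each other. Called higher in both were 19 transporters (54.3%; 28.7% of all tested genes), called lower in both were 3 (8.57%; 29.4% of all), and 1 was called in opposite directions (2.86%; 4.79% of all). A further 10 (28.6%; 25.2% of all) were called in 1 clone only, and 2 (5.71%; 12.0% of all) in neither. At least 2-fold higher in both were 11 (31.4%; 11.3% of all): Slc1a2, Slc1a3, Slc1a4, Slc36a2, Slc36a4, Slc38a1, Slc43a1, Slc43a3, Slc6a12, Slc6a8 and Slc7a2. At least 2-fold lower in both were Slc6a6 and Slc7a4 (5.71%; 11.6% of all).

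**Figure D1:**
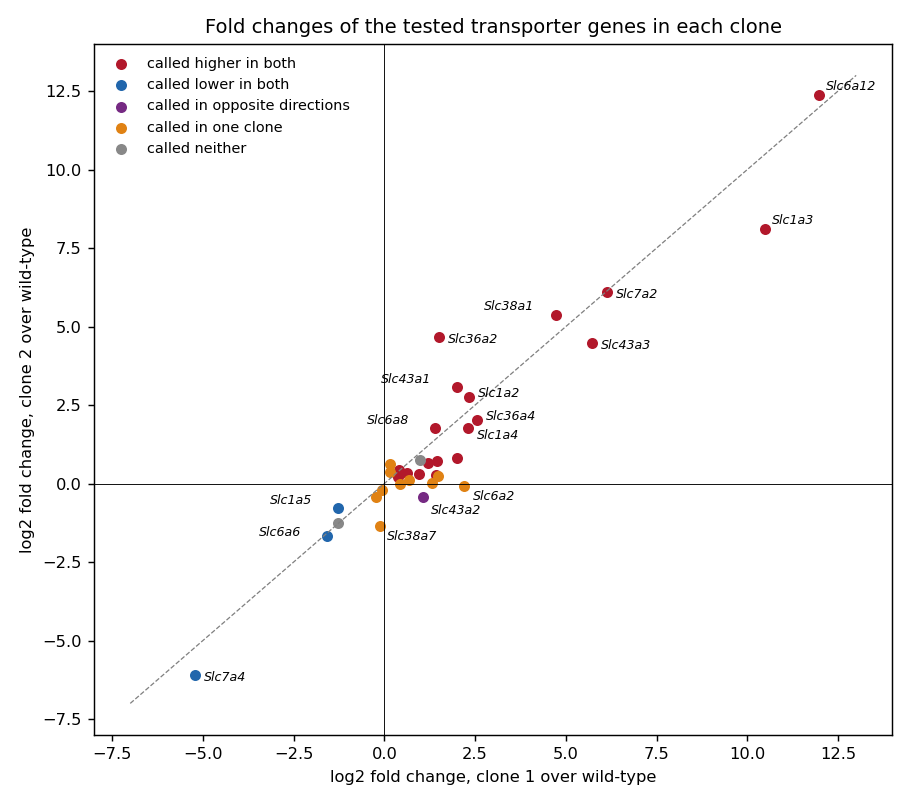
Each point is 1 of the 35 tested transporter genes, with the log2 fold change of clone 1 over wild-type on the horizontal axis and that of clone 2 over wild-type on the vertical axis; colours give the calls and the dashed line marks equal values. Slc6a12 and Slc1a3 lie furthest to the upper right, Slc36a2 lies above the line, Slc1a3, Slc43a3, Slc6a2 and Slc43a2 lie below it, and Slc7a4 lies alone at the lower left. Both axes share the wild-type libraries.

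The labelled cell type, mammary epithelial, was checked against its markers. All 8 epithelial markers (Epcam, Cdh1, Krt8, Krt18, Krt7, Cldn4, Cldn7 and Elf3) were called lower in both clones. Their summed level was 1109 to 1261 CPM (counts relative to the TMM-scaled library size) in clone 1, 1372 to 1553 CPM in clone 2 and 9234 to 10900 CPM in wild-type, and Epcam had 0 counts in clone 2. Of 9 neuronal markers, the summed level was at most 0.874 CPM in clone 1, 2.85 CPM in clone 2 and 0.840 CPM in wild-type, and Snap25, Syt1, Stmn2 and Nefl had 0 counts in all groups. The neuronal marker Rbfox3 was called higher in both clones, at 0.0483 CPM in clone 1, 2.15 CPM in clone 2 and 0 CPM in wild-type (adjusted p = 0.0321 and 3.03e-06), and made up most of the sum in clone 2. The 8 astrocyte and Schwann cell markers summed to 296 to 312 CPM in clone 1, 194 to 216 CPM in clone 2 and 232 to 238 CPM in wild-type, with Gja1 called higher and Mbp lower in both clones and Aqp4 at 0 counts in all groups. Fibroblast markers summed to 177 to 179.9 CPM in clone 1, 107 to 115.5 in clone 2 and 9.16 to 10.6 in wild-type. Most of this was Pdgfra, at 172, 107 and 7.83 CPM in the same order. Col1a1 and Col1a2, which averaged at most 2.95 CPM in a group, were also called higher in both clones, and Col3a1 in clone 1. Lum and Thy1 were at 0 in all groups. The 8 immune markers summed to 9.71 to 11.4 CPM in clone 1, 43.5 to 46.0 in clone 2 and 7.44 to 12.7 in wild-type. In clone 2 nearly all of this was Cd68 (38.6 CPM) and Lyz2 (6.36 CPM). Lyz2 was called higher and Csf1r lower in both clones, and Cd3e and Tyrobp had 0 counts in all groups. The 6 endothelial markers summed to 15.9 to 18.2 CPM in clone 1, 0.816 to 1.09 in clone 2 and at most 0.108 in wild-type. Kdr led in clone 1 at 16.2 CPM, and Kdr and Vwf were called higher in both clones. Pecam1, Cdh5, Tek and Emcn averaged at most 0.146 CPM in any group. The part of these shifts in the transporter results was not tested, and in bulk RNA a change in the share of a cell type cannot be told apart from a change in RNA per cell.

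The SLC6 carriers of betaine, taurine, creatine and GABA held the largest gain of all transporters tested and one of the clearest losses. Slc6a12 (Entrez ID 14411; chr6:121342574-121365773, plus strand, GRCm38) encodes the betaine and GABA carrier that renal cells use to take up betaine as an osmolyte. It had 96.7, 96.8 and 98.3 CPM in clone 1, 125.1, 129 and 128 CPM in clone 2, against 0.0578, 0.0135 and 0 CPM in wild-type. Every clone library lay at 96.7 CPM or above, and the 3 wild-type libraries together held 5 counts. By summed counts it was 4359-fold higher in clone 1 (95% counting interval 1868 to 13430) and 5710-fold higher in clone 2 (2446 to 17590), with edgeR adjusted p of 5.57e-13 and 4.84e-13. Clone 2 exceeded clone 1 by 0.39 on the log2 scale (SE 0.08, adjusted p = 0.00163).

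Slc6a13, the next gene on the same strand and a carrier of GABA and taurine, did not share this gain. It had 8, 8 and 8 counts in clone 1, 8, 2 and 0 counts in clone 2, and 8, 16 and 10 counts in wild-type, too few to test. The start-site windows of this neighbouring pair are shown because the adjacent genes differ so far in level. Each holds 250 bases before to 50 after the annotated start that lies furthest 5′, from RefSeq on GRCm38.p6, 5′ to 3′ on the plus strand, at chr6:121342324-121342623 for Slc6a12 and chr6:121300038-121300337 for Slc6a13. Capitals mark matches to 5 searched motifs.
Slc6a12: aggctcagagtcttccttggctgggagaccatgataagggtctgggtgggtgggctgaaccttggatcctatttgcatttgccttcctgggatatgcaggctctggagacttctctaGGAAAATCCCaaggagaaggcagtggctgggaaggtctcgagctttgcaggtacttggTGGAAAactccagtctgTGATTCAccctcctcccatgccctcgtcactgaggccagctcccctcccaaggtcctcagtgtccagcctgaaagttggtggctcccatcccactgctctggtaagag
Slc6a13: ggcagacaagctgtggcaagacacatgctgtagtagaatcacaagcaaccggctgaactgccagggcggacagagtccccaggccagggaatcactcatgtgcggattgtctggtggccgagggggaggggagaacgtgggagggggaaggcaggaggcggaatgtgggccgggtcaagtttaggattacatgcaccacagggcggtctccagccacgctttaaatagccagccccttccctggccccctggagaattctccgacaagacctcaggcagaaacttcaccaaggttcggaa

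The motifs were searched on both strands, and in all 32851 windows of the same length. They were the SOX core ACAANG (41.2% of all windows), the ATF4-C/EBP composite TGATGNAA (3.97%), the NFAT5 tonicity core TGGAAA (21.4%), the AP-1 site TGANTCA (7.81%) and the NF-kB site (1.47%), written as GGGA, any 2 bases and TTCC. The Slc6a12 window held GGAAAATCCC at position -133, TGGAAA at -75 and TGATTCA at -58, counted from the start site, and the Slc6a13 window shown held none of the 5. Over all annotated starts, 1 of the 3 windows of Slc6a13 held the NFAT5 core and 1 the NF-kB site, and each of these was likewise in 1 of the 5 windows of Slc6a12. The SOX core and the AP-1 site were each in 1 of the 5 windows of Slc6a12 and in 0 of the 3 of Slc6a13. Of the 66 transporter rows, 48 had a window in the table, 69 windows in all. These held the 5 motifs in 44.9%, 7.25%, 20.3%, 14.5% and 2.9% in the same order. A match to so few letters is a description of the sequence and not a site of binding.

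Slc6a8, the creatine carrier, rose in both clones. It had 194.7, 199 and 198.5 CPM in clone 1, 248, 260.0 and 261 CPM in clone 2, against 68.3, 77.2 and 78.1 CPM in wild-type, with no overlap between any groups. The log2 fold change was 1.41 ± 0.06 (SE) in clone 1 and 1.78 ± 0.06 in clone 2, with adjusted p of 8.98e-10 and 1.34e-10. Slc6a6 (Entrez ID 21366; chr6:91684048-91759063, plus strand), the taurine carrier, moved the other way. It had 143, 152 and 156 CPM in clone 1, 137.5, 142 and 145 CPM in clone 2, against 410.4, 448.5 and 483 CPM in wild-type. The clones overlapped each other and lay far below wild-type, at log2 fold changes of -1.57 ± 0.06 and -1.66 ± 0.06 (adjusted p = 9.6e-10 and 6.5e-10). Slc6a11, a GABA carrier of glia, had 0 counts in all libraries.

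**Figure D2:**
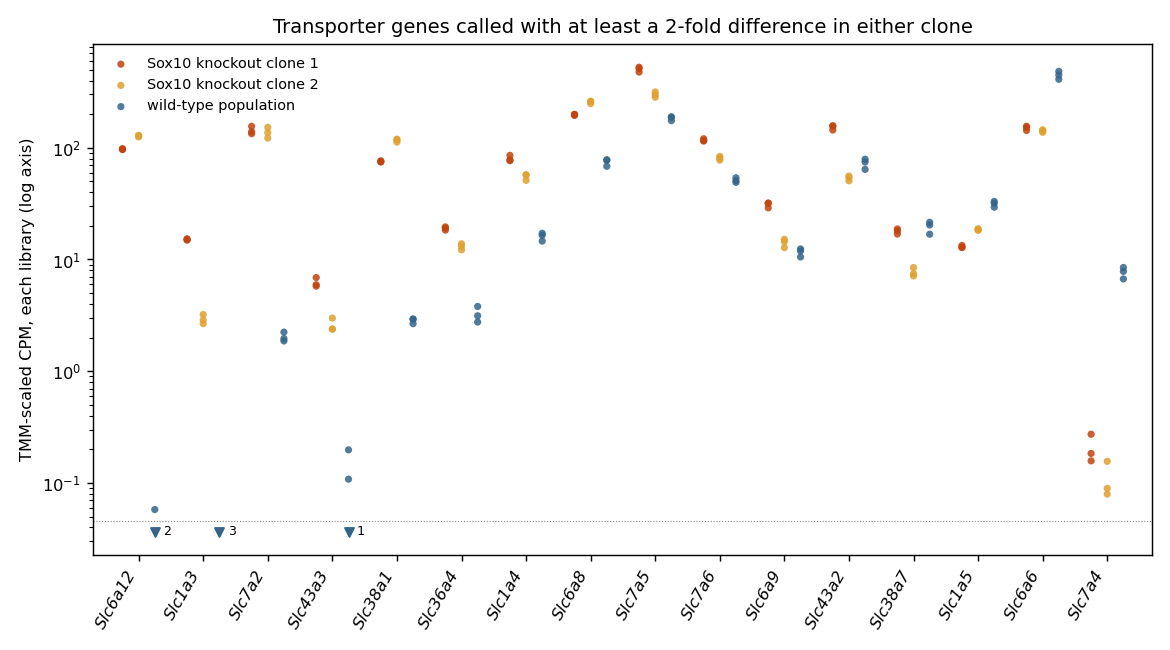
TMM-scaled CPM on a log axis for the 16 transporter genes that were called with at least a 2-fold difference in either clone and averaged at least 5 CPM in some group; each point is 1 library, with clone 1, clone 2 and wild-type from left to right, ordered by mean log2 fold change. Triangles below the dotted line, 3 counts in the shallowest library, give the number of libraries under it. Points of 1 gene and group mostly lie close together, and the gap between clones and wild-type is widest for Slc6a12, Slc1a3 and Slc7a2.

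Among the cationic carriers, which bring in arginine, lysine and ornithine, Slc7a2 rose and the related Slc7a4 fell. Slc7a2 (Entrez ID 11988; chr8:40862341-40922070, plus strand), an arginine carrier induced in activated macrophages, had 156, 139 and 134 CPM in clone 1, 152, 122 and 137 CPM in clone 2, against 2.24, 1.96 and 1.87 CPM in wild-type. The clones overlapped each other and all of their libraries exceeded wild-type by far, at 70.7-fold in clone 1 and 67.9-fold in clone 2 (adjusted p = 2.26e-12 and 2.29e-12). The difference between the clones was -0.06 ± 0.09 on the log2 scale (adjusted p = 0.577).

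Slc7a4 (Entrez ID 224022; chr16:17572018-17576890, minus strand) resembles the cationic carriers in sequence, and its human form alone carried no cationic amino acids in transport assays. It had 0.273, 0.184 and 0.158 CPM in clone 1, 0.156, 0.0794 and 0.0894 CPM in clone 2, against 6.70, 7.83 and 8.48 CPM in wild-type. Both clones lay far below wild-type, at log2 fold changes of -5.23 ± 0.23 and -6.11 ± 0.25 (adjusted p = 2.03e-09 and 1.04e-09). Slc7a1, the broadly expressed cationic carrier, rose modestly, with means of 247.5 ± 8.5 CPM in clone 1 and 255.5 ± 11.7 CPM in clone 2, against 187.7 ± 4.7 CPM in wild-type (SD, n = 3 each). Slc7a3, a carrier known from neurons, averaged 0.168, 0.167 and 0.404 CPM in clone 1, clone 2 and wild-type, and its log2 fold change of -1.26 in clone 1 had an adjusted p of 0.0590, and 0.0486 with the replicate number as a block. It was also called lower in clone 1 without clone 1 replicate 1, clone 2 replicate 2 or wild-type replicate 3 (adjusted p 0.0228 to 0.0482), and in clone 2 without clone 2 replicate 3 (-1.67, adjusted p = 0.0418) or wild-type replicate 3 (-1.60, adjusted p = 0.0225).

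The heavy chain Slc3a2 and its light chains Slc7a5 and Slc7a6 rose in both clones, less in clone 2 than in clone 1. Slc7a5 (Entrez ID 20539; chr8:121881146-121907686, minus strand), the light chain that exchanges leucine and other large neutral amino acids for glutamine, had 476, 511 and 526 CPM in clone 1, 283, 299 and 316 CPM in clone 2, against 175, 189 and 187.5 CPM in wild-type. The groups did not overlap, with clone 1 highest and wild-type lowest. Log2 fold changes were 1.46 ± 0.06 and 0.70 ± 0.06 against wild-type, and clone 2 lay 0.75 ± 0.06 below clone 1 (adjusted p = 9.7e-07).

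Slc3a2, the heavy chain itself, averaged 376 ± 21 CPM in clone 1, 308 ± 19 CPM in clone 2 and 245 ± 21 CPM in wild-type (SD, n = 3 each), called higher in both clones. Its log2 fold changes of 0.62 and 0.33 became 1.06 and 0.79 when the median of its chromosome was taken off. Slc7a6, a light chain that exchanges cationic for neutral amino acids, had 116, 115 and 120.5 CPM in clone 1, 77.5, 81.0 and 83.8 CPM in clone 2, against 49.0, 53.9 and 50.7 CPM in wild-type. It followed the order of Slc7a5, without overlap, at log2 fold changes of 1.19 ± 0.05 and 0.66 ± 0.05 (adjusted p = 2.56e-09 and 4.8e-07). Slc7a7, the light chain with the same substrates in kidney and gut, averaged 10.9, 15.1 and 9.84 CPM in clone 1, clone 2 and wild-type, and was called higher in clone 2 (log2 fold change 0.62, adjusted p = 0.000139) but not in clone 1 (0.15, adjusted p = 0.197). The value in clone 2 became 0.13 with its chromosome's median taken off.

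Slc7a11, the light chain that imports cystine for glutathione synthesis, did not follow its heavy chain. It averaged 29.2 ± 1.2 CPM in clone 1, 25.5 ± 3.2 CPM in clone 2 and 34.0 ± 3.5 CPM in wild-type. It was called lower in clone 2 (log2 fold change -0.41, adjusted p = 0.00249), while the value of -0.22 in clone 1 had an adjusted p of 0.0596, and 0.00697 with the replicate block. It was called lower in clone 1 as well in DESeq2 (adjusted p = 0.033) and in edgeR with DESeq2 size factors (0.041). The same call came with each contrast fitted on its own 6 libraries (0.0385), and without clone 2 replicate 2 or 3 or wild-type replicate 3 (adjusted p 0.0353 to 0.0462). The value in clone 2 became -0.82 with its chromosome's median taken off. The light chains Slc7a8 and Slc7a10 had 0 counts in all libraries. Slc3a1, the other heavy chain, had at most 6 counts in a library, and its kidney partner Slc7a9 had 0 counts in all.

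Heavy and light chains pair in protein, so their transcripts were set against each other per length (CPM per kb of annotated exon, ratio to Slc3a2). The 4 detected light chains summed to 1.57 ± 0.02 times the level of Slc3a2 in clone 1, 1.20 ± 0.06 times in clone 2 and 0.956 ± 0.052 times in wild-type (SD, n = 3 each). The 3 groups did not overlap, with ratios of 1.56 to 1.59 in clone 1, 1.14 to 1.25 in clone 2 and 0.901 to 1.00 in wild-type. Slc7a5 alone accounted for most of this, with ratios of 1.28 in clone 1, 0.928 in clone 2 and 0.716 in wild-type. The ratio of Slc7a11 was 0.0197 in clone 1, 0.0211 in clone 2 and 0.0356 in wild-type, with every clone library below every wild-type library. The size of these ratios depends on the length used. Per kb of longest coding transcript, Slc3a2 had 133.6, 109.4 and 87.1 CPM in clone 1, clone 2 and wild-type. On that scale Slc7a5 had 143.4, 85.2 and 52.3 CPM in the same order. These are transcript ratios with no test of their own, and they say nothing of assembled protein.

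**Figure D3:**
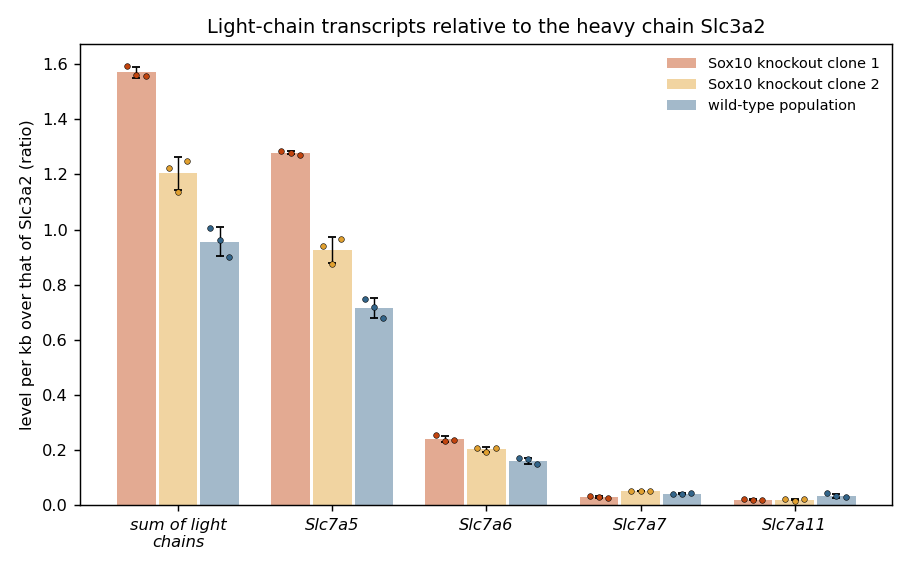
Level per kb of each detected Slc3a2-bound light chain and of their sum, divided by the level per kb of Slc3a2; bars are means, whiskers SD over 3 libraries and points single libraries. The sum is 1.57 in clone 1, 1.20 in clone 2 and 0.956 in wild-type, and Slc7a5 makes up most of it.

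The SLC43 carriers move large neutral amino acids or nucleobases by facilitated diffusion, with no heavy chain. Slc43a2 (Entrez ID 215113; chr11:75529915-75577575, plus strand), a large neutral carrier, was the one transporter called in opposite directions. It had 144, 157 and 157 CPM in clone 1, 50.7, 54.0 and 55.9 CPM in clone 2, against 64.1, 74.6 and 79.0 CPM in wild-type. Clone 1 lay above and clone 2 below every wild-type library, at log2 fold changes of 1.07 ± 0.08 and -0.44 ± 0.08 (adjusted p = 1.51e-07 and 0.000282). Slc43a1, with the same kind of substrates, had 13, 9 and 17 counts in clone 1, 36, 37 and 20 counts in clone 2, and 6, 0 and 4 counts in wild-type. It was called higher in both, but in clone 1 the adjusted p of 0.0218 became 0.0715 without clone 1 replicate 3, 0.0552 without wild-type replicate 2 and 0.0509 without wild-type replicate 3. Slc43a3, which in human cells carries purine nucleobases, had 5.94, 5.77 and 6.89 CPM in clone 1, 2.39, 2.38 and 2.99 CPM in clone 2, against 0.0289, 0.108 and 0.198 CPM in wild-type. Every clone library exceeded wild-type, at 53.4-fold (95% counting interval 36.3 to 82.1) in clone 1 and 22.3-fold (15.1 to 34.4) in clone 2 by summed counts.

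Of the system A carriers, which take up small neutral amino acids such as alanine and glutamine with sodium, both detected members rose. Slc38a1 (Entrez ID 105727; chr15:96571418-96643438, minus strand) had 75.3, 74.6 and 76.5 CPM in clone 1, 112, 118 and 119 CPM in clone 2, against 2.93, 2.66 and 2.92 CPM in wild-type. The groups did not overlap, and the spread within each was small beside the gaps. It was 26.6-fold higher in clone 1 and 41.1-fold higher in clone 2 (adjusted p = 2.4e-13 and 1.88e-13), with clone 2 above clone 1 by 0.63 ± 0.05 on the log2 scale. Slc38a2, its neighbour on the chromosome and the member that amino acid shortage induces, averaged 492 ± 18 CPM in clone 1, 313 ± 17 CPM in clone 2 and 253 ± 6 CPM in wild-type, and was called higher in both. In clone 2 its log2 fold change of 0.31 became 0.06 with the median of chromosome 15 taken off. Slc38a4, the next gene in the row and the third system A carrier, had 1 count in all 9 libraries together.

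Of the other tested SLC38 carriers, only Slc38a7 was called with a difference of at least 2-fold. Slc38a7, which in human cells exports glutamine and asparagine from lysosomes, had 18.8, 18.04 and 16.9 CPM in clone 1, 7.48, 8.46 and 7.13 CPM in clone 2, against 16.8, 20.4 and 21.5 CPM in wild-type. Clone 2 lay below all other libraries, at a log2 fold change of -1.35 ± 0.11 (adjusted p = 3.74e-07), while clone 1 overlapped wild-type (-0.13, adjusted p = 0.269). Without wild-type replicate 1 the value in clone 1 was called lower (-0.23, adjusted p = 0.041). Slc38a9, the lysosomal arginine sensor of mTORC1, averaged 9.14 CPM in clone 1, 6.10 CPM in clone 2 and 5.70 CPM in wild-type and was called higher in clone 1 (log2 fold change 0.68). Clone 2 lay below clone 1 in it, with a log2 difference of -0.58 that became 0.036 when the median of chromosome 13 was taken off. Slc38a10 was called higher in both, at 0.37 in clone 1 and 0.20 in clone 2, but in clone 2 the adjusted p of 0.0116 became 0.0853 without clone 2 replicate 2 and 0.0898 without wild-type replicate 1. Slc38a6 was called in clone 2 (0.37, adjusted p = 0.0382), a call lost by leaving out either of 2 clone 2 libraries or either of 2 wild-type libraries (adjusted p 0.0572 to 0.129), by scaling to library totals (0.0558) and by a stricter filter (0.0540). Its value became 0.88 with its chromosome's median taken off. The system N carriers Slc38a3 and Slc38a5 had at most 9 counts in a library.

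The small neutral exchangers of the SLC1 family moved in opposite directions. Slc1a4, which exchanges alanine, serine, cysteine and threonine, had 77.8, 76.7 and 85.5 CPM in clone 1, 51.1, 57.4 and 56.9 CPM in clone 2, against 14.6, 16.5 and 17.2 CPM in wild-type. The 3 groups did not overlap, and their log2 fold changes were 2.31 ± 0.08 for clone 1 and 1.78 ± 0.08 for clone 2 (adjusted p = 2.5e-10 and 2.27e-09). Slc1a5, the exchanger best known for glutamine uptake by tumour cells, had 13.4, 12.9 and 12.8 CPM in clone 1, 18.3, 18.8 and 18.4 CPM in clone 2, against 29.4, 31.9 and 33.1 CPM in wild-type. It fell in both clones, by 1.27 ± 0.07 and 0.76 ± 0.07 on the log2 scale (adjusted p = 9.54e-09 and 7.49e-07). With its chromosome's median taken off, the log2 fold changes were -0.85 in clone 1 and -0.35 in clone 2. The start-site window of Slc1a4 is shown for the ATF4-C/EBP composite in it, a match held by 3.97% of all windows and 7.25% of transporter windows. The window lies at chr11:20332664-20332963 on the minus strand and holds TTGCATCA, the reverse complement form of TGATGNAA, at position -4. Binding there was not tested.
Slc1a4: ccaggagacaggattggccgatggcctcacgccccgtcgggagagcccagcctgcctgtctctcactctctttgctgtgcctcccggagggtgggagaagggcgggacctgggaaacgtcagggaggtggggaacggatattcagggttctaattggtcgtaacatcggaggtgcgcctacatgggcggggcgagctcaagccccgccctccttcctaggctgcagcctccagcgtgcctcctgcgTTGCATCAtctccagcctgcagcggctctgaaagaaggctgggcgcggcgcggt

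All 4 tested glutamate and aspartate carriers were called higher in clone 1, and 3 of them in clone 2, where 37.9% and 37.3% of all tested genes were. Slc1a3 (Entrez ID 20512; chr15:8634124-8710807, minus strand), the carrier by which astrocytes clear glutamate, had 15.3, 14.9 and 15.1 CPM in clone 1, 2.66, 2.87 and 3.22 CPM in clone 2, against 0, 0 and 0.0247 CPM in wild-type. It was present in every clone library, several-fold higher in clone 1 than in clone 2, and wild-type held 2 counts in all. By summed counts it was 1692-fold higher in clone 1 (95% counting interval 468 to 13980) and 326.5-fold higher in clone 2 (90.1 to 2702), and clone 2 lay 2.37 ± 0.14 below clone 1 on the log2 scale. Its start-site window at chr15:8710758-8711057, minus strand, is shown for the SOX core in it, CCTTGT at position -179, a match that 41.2% of all windows also hold.
Slc1a3: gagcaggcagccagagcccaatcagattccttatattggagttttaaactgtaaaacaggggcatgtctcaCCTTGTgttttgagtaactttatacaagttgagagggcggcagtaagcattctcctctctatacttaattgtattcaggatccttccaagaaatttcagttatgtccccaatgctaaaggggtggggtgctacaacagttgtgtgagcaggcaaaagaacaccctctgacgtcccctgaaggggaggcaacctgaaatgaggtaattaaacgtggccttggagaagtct

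Slc1a2, the main glutamate carrier of forebrain, had 2.34, 3.15 and 2.57 CPM in clone 1, 3.84, 3.43 and 3.70 CPM in clone 2, against 0.636, 0.352 and 0.618 CPM in wild-type. It was called higher in both clones, and the clones differed by 0.45 ± 0.19 (adjusted p = 0.0604, and 0.0358 with the replicate block). Slc1a1, which neurons and epithelia also use for cysteine, averaged 3.77 CPM in clone 1, 1.64 CPM in clone 2 and 0.933 CPM in wild-type, called higher in both. In clone 2 its log2 fold change of 0.81 became 1.27 with its chromosome's median taken off. Slc1a7, known from retina, was near the floor at 0.212, 0.0878 and 0.0737 CPM in clone 1, clone 2 and wild-type. Its call in clone 1 (adjusted p = 0.0367) was lost with the replicate block (0.0511), in DESeq2 (0.0701), without the filter (0.0832) and without clone 1 replicate 2 or 3 or wild-type replicate 1 or 2 (0.0647 to 0.117).

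Of the glycine, proline and monoamine carriers of SLC6, 3 were tested and all 3 were called higher in clone 1, where 37.9% of all tested genes were. Slc6a9, the glycine carrier that supplies red cell precursors and sets glycine around neurons, had 29.0, 31.9 and 32.0 CPM in clone 1, 14.4, 15.2 and 12.8 CPM in clone 2, against 10.5, 11.9 and 12.4 CPM in wild-type. Clone 1 stood apart at a log2 fold change of 1.41 ± 0.09 (adjusted p = 5.84e-08). Clone 2 lay just above wild-type at 0.28 ± 0.09 (adjusted p = 0.0157), a call lost without clone 2 replicate 2 (0.0902) or wild-type replicate 1 (0.0729), and its value became 0.81 with its chromosome's median taken off. Slc6a2, the noradrenaline carrier, had 3.85, 4.51 and 3.74 CPM in clone 1, 0.936, 0.781 and 0.779 CPM in clone 2, against 0.549, 1.01 and 1.05 CPM in wild-type. Clone 2 and wild-type overlapped and clone 1 lay above both. Slc6a7, a proline carrier of brain, averaged 0.439 CPM in clone 1, 0.179 CPM in clone 2 and 0.176 CPM in wild-type and was called in clone 1 alone (adjusted p = 0.00463). The dopamine carrier Slc6a3 had at most 2 counts in a library. The serotonin carrier Slc6a4 had 8, 2 and 0 counts in clone 1, 17, 4 and 0 counts in clone 2, and 0, 1 and 0 counts in wild-type, so the libraries of each clone differed among themselves by more than the clones did.

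Among the proton-coupled carriers, Slc36a4 rose in both clones and Slc36a2 mainly in clone 2. Slc36a4, a carrier with high affinity for proline and tryptophan, had 19.6, 19.1 and 18.3 CPM in clone 1, 13.8, 12.2 and 13.2 CPM in clone 2, against 3.80, 3.14 and 2.76 CPM in wild-type. The groups did not overlap, at log2 fold changes of 2.56 ± 0.12 and 2.02 ± 0.11 (adjusted p = 2.68e-09 and 2.08e-08). Its start-site window, chr9:15709488-15709787 on the plus strand, is shown as that of a member raised in both clones in which none of the 5 motifs was found.
Slc36a4: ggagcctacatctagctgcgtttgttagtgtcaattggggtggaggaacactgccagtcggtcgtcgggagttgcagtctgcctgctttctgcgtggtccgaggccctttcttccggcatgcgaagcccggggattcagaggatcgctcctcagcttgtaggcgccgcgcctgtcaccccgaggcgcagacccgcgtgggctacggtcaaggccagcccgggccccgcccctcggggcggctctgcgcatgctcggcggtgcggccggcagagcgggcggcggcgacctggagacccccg

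Slc36a2, a glycine and proline carrier of kidney, had 0.364, 0.538 and 0.287 CPM in clone 1, 3.925, 3.44 and 3.32 CPM in clone 2, against 0.101, 0.284 and 0.0371 CPM in wild-type. Clone 2 stood apart, at a log2 fold change of 4.67 ± 0.42 (adjusted p = 1.15e-06). In clone 1 the lowest library barely exceeded the highest of wild-type, and the call (1.51, adjusted p = 0.0163) was lost without clone 1 replicate 2 (1.22, adjusted p = 0.0715) or wild-type replicate 3 (1.02, adjusted p = 0.0517). Slc36a1, the lysosomal member next to it on chromosome 11, averaged 114 CPM in clone 1, 103 CPM in clone 2 and 118 CPM in wild-type, with a small decrease called in clone 2 (log2 fold change -0.20, adjusted p = 0.00251). Slc36a3, on its other side, had at most 1 count in a library.

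The remaining rows were low or are not carriers. Too low to test were 31 rows, of which 13 had 0 counts in every library, where 3 counts in a library correspond to 0.036 to 0.0455 CPM. Apart from Slc6a4 and Slc6a13, the other 16 had at most 9 counts in any library. The neutral amino acid carriers of intestine, kidney and brain in SLC6 were all in this range except Slc6a19, which averaged 0.145, 0.122 and 0.0710 CPM in clone 1, clone 2 and wild-type and was called in neither clone. Slc6a14, a broad carrier raised in some epithelial tumours, had 0 counts in both clones and at most 6 in a wild-type library. Of 4 rows with a matching symbol that were set apart from the carriers (Slc7a6os, Slc6a19os, Slc36a1os and Slc6a21), Slc7a6os was tested and averaged 38.1 CPM in clone 1, 27.9 CPM in clone 2 and 28.4 CPM in wild-type, called higher in clone 1. Its log2 fold change of 0.42 there became 0.07 with its chromosome's median taken off. Small counts carry an added limit, since 71.9% of all values from 1 to 20 in the table were even numbers, and 74.1% of the 108 such values among transporter rows. Single counts may therefore not be independent reads, which was not tested, and counting intervals cover counting error only.

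Per length of annotated exon, all 66 rows summed to 594.7 ± 14.9 CPM per kb in clone 1, 482 ± 13.6 CPM per kb in clone 2 and 343.7 ± 18.8 CPM per kb in wild-type (SD, n = 3 each). Of this, Slc7a6os, which is not a carrier, held 9.03, 6.61 and 6.74 CPM per kb in the same order. The ranks that follow leave out Slc7a6os, Slc6a19os and Slc36a1os. Leading in clone 1 were Slc7a5 at 136 and Slc3a2 at 106.5 CPM per kb. In clone 2 the order was Slc3a2 at 87.2, Slc7a5 at 80.8 and Slc6a8 at 49.2 CPM per kb. In wild-type it was Slc3a2 at 69.5, Slc6a6 at 52.9 and Slc7a5 at 49.6 CPM per kb. The taurine carrier Slc6a6 thus ranked 11 in clone 1, 10 in clone 2 and 2 in wild-type, and the betaine carrier Slc6a12 ranked 6 in clone 1, 5 in clone 2 and 36 in wild-type. Ranks shifted with the length used. Per kb of longest coding transcript, Slc38a2 ranked 3 in clone 2 and in wild-type, Slc6a8 ranked 4 in clone 2 and Slc7a5 ranked 5 in wild-type. On that scale Slc6a6 ranked 9, 8 and 2 and Slc6a12 ranked 6, 6 and 36 in clone 1, clone 2 and wild-type.

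Summed by substrate class per kb of annotated exon, the large neutral, system A and cationic carriers were among those higher in both clones. The large neutral class (Slc7a5, Slc7a8, Slc43a1 and Slc43a2) summed to 151 ± 8 CPM per kb in clone 1, 86.2 ± 4.6 in clone 2 and 56.8 ± 2.8 in wild-type. System A summed to 60.1 ± 2.0 CPM per kb in clone 1, 42.2 ± 1.7 in clone 2 and 28.8 ± 0.6 in wild-type. Of this, Slc38a2 held 55.7, 35.4 and 28.6 CPM per kb in clone 1, clone 2 and wild-type, and Slc38a1 held 4.38, 6.76 and 0.165. The cationic class summed to 37.2 ± 0.5 CPM per kb in clone 1, 37.3 ± 1.1 in clone 2 and 18.5 ± 0.5 in wild-type. In these 3 classes no clone library overlapped wild-type, which was not particular to them. Every clone library also exceeded wild-type in the heavy chain, cationic-neutral exchange and small neutral exchange classes. The same held for the glutamate, the glycine and proline, the nucleobase and the betaine, taurine, creatine and GABA classes. In the cystine class every clone library lay below wild-type. The proton-coupled, monoamine and other SLC38 classes overlapped wild-type in clone 2. The class of betaine, taurine, creatine and GABA carriers summed to 87.6 ± 1.4 CPM per kb in clone 1, 107.7 ± 2.4 in clone 2 and 67.3 ± 5.3 in wild-type, with Slc6a12 and Slc6a8 higher and Slc6a6 lower in the clones. The proton-coupled class summed to 23.3, 21.4 and 21.6 CPM per kb in clone 1, clone 2 and wild-type.

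**Figure D4:**
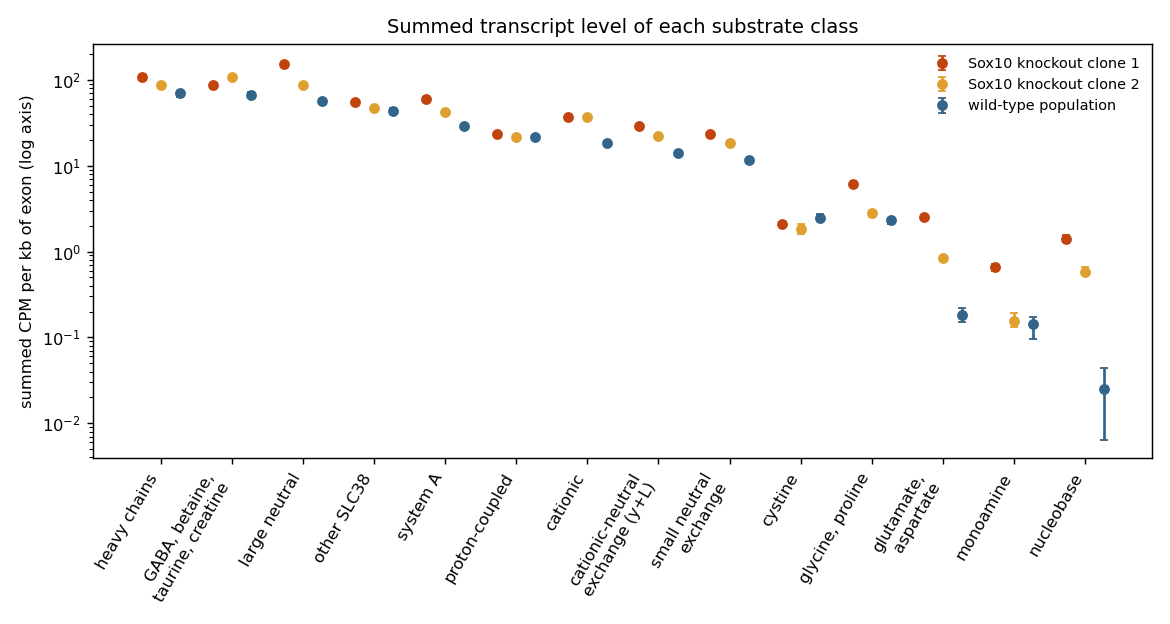
Summed CPM per kb of annotated exon for each substrate class, on a log axis; points are means and bars reach from the lowest to the highest of 3 libraries, with clone 1, clone 2 and wild-type from left to right and classes in order of their wild-type level. The glutamate and nucleobase classes lie furthest apart between clones and wild-type, and the cystine class is the one of those above 1 CPM per kb in which wild-type is highest.

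The clones were also compared with each other. Of the 35 tested rows, Slc7a6os among them, 24 were called (68.6%; 57.6% of all tested genes), 6 higher in clone 2 (17.1%; 30.1% of all) and 18 lower in clone 2 (51.4%; 27.5% of all), or 17 of 34 without Slc7a6os. The 6 were Slc1a5, Slc36a2, Slc38a1, Slc6a12, Slc6a8 and Slc7a7. The 18 included the heavy chain Slc3a2 with the light chains Slc7a5 and Slc7a6, the system A carrier Slc38a2, the exchanger Slc1a4 and the glutamate carriers Slc1a1 and Slc1a3. A difference of more than 2-fold between the clones, tested with edgeR's glmTreat, was called for 4 (11.4%; 8.52% of all). Slc36a2 was higher in clone 2, by 3.15 ± 0.36 on the log2 scale. Slc1a3, Slc6a2 and Slc43a2 were lower in clone 2, with log2 differences of -2.37 ± 0.14, -2.27 ± 0.22 and -1.51 ± 0.08. With the replicate block, Slc38a7 passed this test as well, at -1.22 (adjusted p = 0.0275), as it did with each contrast fitted on its own 6 libraries, without clone 2 replicate 2 and without wild-type replicate 1 (adjusted p 0.0258 to 0.0418). Small differences were less firm, as the calls of Slc38a10 (-0.16, adjusted p = 0.0408) and Slc36a1 (-0.15, adjusted p = 0.0205) were lost when some single libraries were left out (adjusted p up to 0.144 and 0.0733). With the replicate block, Slc38a6 (0.21, adjusted p = 0.0325) and Slc7a11 (-0.20, adjusted p = 0.0178) were called as well. Slc7a4 (-0.88, adjusted p = 0.0531), Slc1a2, Slc38a6 and Slc7a11 were called when some single libraries were left out (adjusted p 0.0229 to 0.0452). With all libraries, Slc7a4 was called with library totals (0.0495), DESeq2 size factors (0.0498), DESeq2 (0.043) and the stricter filter (0.0458). DESeq2 also called Slc1a2 (0.0447) and lost Slc38a10 (0.062), which was lost as well with DESeq2 size factors (0.0634) and without the filter (0.0547). The fit per contrast called Slc1a2 (0.0229) and Slc43a1 (0.0444).

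Gene order was examined around 6 members, with 6 neighbours on each side. Slc6a12 lay between Slc6a13, too low to test, and Iqsec3, which had 4.26 in clone 1 and 5.34 in clone 2 on the log2 scale, and its 11 tested neighbours ranged from -7.49 to 4.26 in clone 1 and from -7.49 to 5.34 in clone 2. Slc7a2 lay between Mtmr7, at 3.39 in clone 1 and 3.85 in clone 2, and Pdgfrl, at -6.48 and -0.00217, and its 12 neighbours ranged from -6.48 to 3.39 in clone 1 and from -0.38 to 3.85 in clone 2. Slc38a1 and Slc38a2 are adjacent and differed widely, at 4.73 and 0.96 in clone 1 and at 5.36 and 0.31 in clone 2. The 10 tested neighbours of Slc38a1 outside the families ranged from -4.24 to 5.77 in clone 1 and from -8.79 to 3.67 in clone 2. Among them were Amigo2, at 5.77 and 1.10, and Gm17546, at -4.24 and -8.79. The 12 neighbours of Slc1a3 ranged from -9.22 to 3.88 in clone 1 and from -13.7 to 4.81 in clone 2. For Slc36a2, 9 such neighbours ranged from -1.87 to 4.21 in clone 1 and from -5.21 to 3.73 in clone 2. Slc7a4, at -5.23 and -6.11, lay far below its 12 neighbours, which ranged from -0.53 to 1.08 in clone 1 and from -0.07 to 1.45 in clone 2 and held genes called in either direction. Median log2 fold changes of whole chromosomes reached 0.61 in clone 1 and 0.48 in clone 2 for chromosome 14 and -0.49 in clone 1 and -0.53 in clone 2 for chromosome 4. With the median of its own chromosome taken off each value, all 11 members at least 2-fold higher in both clones and the 2 at least 2-fold lower stayed so, and 0 of the 28 calls in either clone changed sign. The log2 fold change moved by more than 1.5 times for 3 of the called rows in clone 1 and 8 in clone 2, each named with its gene. The copy number of these chromosomes was not measured.

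**Figure D5:**
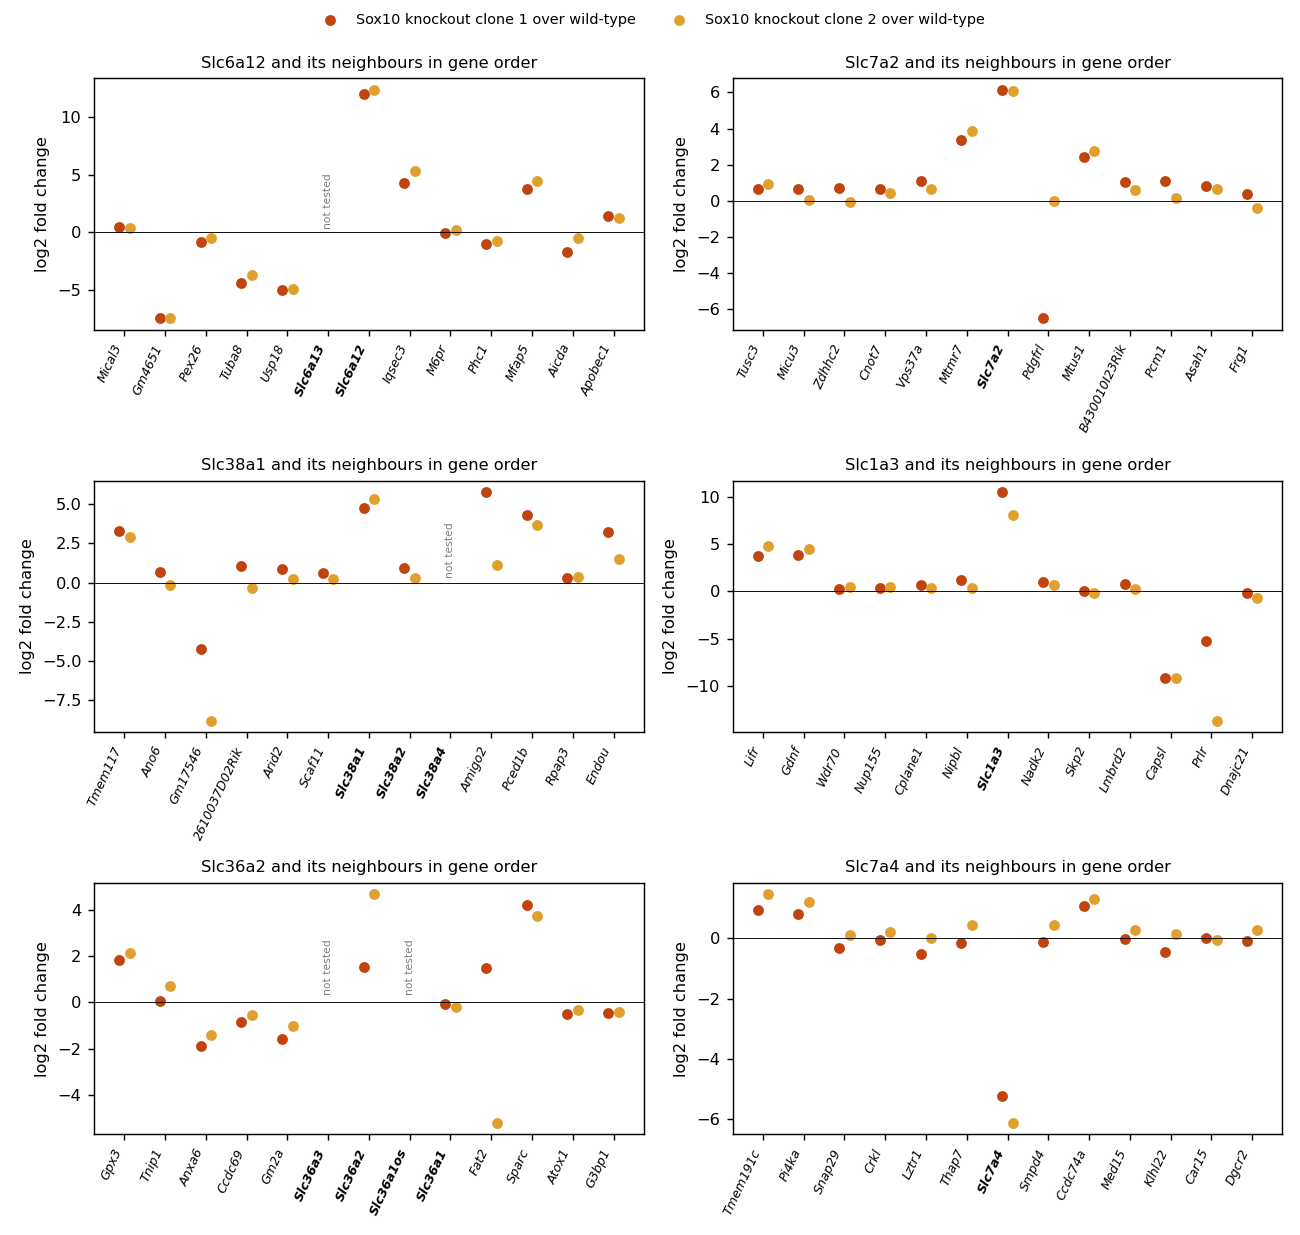
Log2 fold change over wild-type of 6 transporter genes and of the 6 genes on each side of them in gene order, for clone 1 and clone 2; transporter genes are in bold and genes too low to test are marked. Slc7a4 lies far below its 12 neighbours, which range from -0.53 to 1.08 in clone 1 and from -0.07 to 1.45 in clone 2, while Slc7a2 and Slc6a12 rise next to neighbours that also differ between clones and wild-type.

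Enzymes and sensors that use or read the same substrates were counted from lists outside the families. Of 13 tested genes of the amino acid shortage response, 7 were called higher and 5 lower in clone 1 (37.9% and 38.6% of all tested genes), and 7 higher and 5 lower in clone 2 (37.3% and 37.1% of all), with median log2 fold changes over the list of 0.30 in clone 1 and 0.57 in clone 2. Asns, the asparagine synthetase, averaged 315 ± 16 CPM in clone 1, 291 ± 5 CPM in clone 2 and 129.9 ± 4.5 CPM in wild-type, and Ddit3, a transcription factor of the response, 27.1, 24.0 and 8.85 CPM in the same order of groups. Nupr1, a stress-induced regulator of the same response, fell, with 39.6 CPM in clone 1 and 24.0 CPM in clone 2, against 114 CPM in wild-type. Of 26 tested genes of amino acid sensing by mTORC1, 12 were called higher and 7 lower in clone 1 (37.9% and 38.6% of all tested genes), and 13 higher and 7 lower in clone 2 (37.3% and 37.1% of all; medians -0.00049 and 0.13). Sesn1, a sestrin that binds leucine, rose to 48.2 and 32.9 CPM in clone 1 and clone 2, against 13.2 CPM in wild-type. Castor1, the cytosolic arginine sensor, fell to 3.39 and 2.10 CPM, against 15.5 CPM.

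Beside the arginine carrier Slc7a2, the arginine enzymes moved in both directions. Of 12 tested genes of arginine and polyamine use, 7 were called higher and 4 lower in clone 1 (37.9% and 38.6% of all tested genes), and 7 higher and 5 lower in clone 2 (37.3% and 37.1% of all; medians 0.215 and 0.45). Nos2, the nitric oxide synthase that cytokines induce and that consumes arginine, averaged 82.2 ± 2.6 CPM in clone 1, 339 ± 13 CPM in clone 2 and 0.220 ± 0.163 CPM in wild-type. The arginases, which split arginine to ornithine, fell close to the floor: Arg1 averaged 0.0602 CPM in clone 1, 0.0160 CPM in clone 2 and 6.54 CPM in wild-type, and Arg2 0.0429, 0.0882 and 9.42 CPM in the same order.

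Beside the large neutral carriers, 3 of 11 genes of branched-chain amino acid use were called higher and 5 lower in clone 1 (37.9% and 38.6% of all tested genes), and 6 higher and 5 lower in clone 2 (37.3% and 37.1% of all; medians -0.23 and 0.23). Bcat1, the cytosolic branched-chain aminotransferase, rose and had 4.26 CPM in clone 1 and 5.40 CPM in clone 2, against 0.0179 CPM in wild-type. Bckdhb, a subunit of the branched-chain ketoacid dehydrogenase, was at 0.00955 CPM in clone 1, 19.4 CPM in clone 2 and 28.4 CPM in wild-type. Of 15 genes of glutamine and glutamate use, 8 were called higher and 3 lower in clone 1, and 9 higher and 4 lower in clone 2 (the same shares of all tested genes; medians 0.63 and 0.39). Gclc, the catalytic subunit of glutathione synthesis from glutamate and cysteine, rose to 199 and 186 CPM in clone 1 and clone 2, against 80.4 CPM in wild-type, where the cystine carrier Slc7a11 did not rise.

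Beside the betaine and taurine carriers, 6 of 12 tested genes of betaine, taurine, creatine and GABA use were called higher and 3 lower in clone 1 (37.9% and 38.6% of all tested genes), and 6 higher and 5 lower in clone 2 (37.3% and 37.1% of all; medians 0.27 and 0.10). Sardh, which breaks down sarcosine, and Gamt, the last enzyme of creatine synthesis, rose in both clones. Chdh, which makes betaine from choline, averaged 51.3 CPM in clone 1, 2.82 CPM in clone 2 and 36.5 CPM in wild-type, called higher in clone 1 and lower in clone 2. Of 8 tested genes of the osmotic response, a list that holds Slc6a12 and Slc6a6, 5 were called higher and 2 lower in clone 1, and 5 higher and 3 lower in clone 2 (the same shares of all tested genes; medians 0.61 and 0.23). Slc5a3, the myo-inositol carrier induced with Slc6a12 by high salt in kidney cells, averaged 93.9 ± 15 CPM in clone 1, 20.2 ± 2.5 CPM in clone 2 and 12.7 ± 0.8 CPM in wild-type. Nfat5, the transcription factor of that response, averaged 121 CPM in clone 1, 72.8 CPM in clone 2 and 62.0 CPM in wild-type. Hspa1b (log2 fold changes 1.11 in clone 1 and 0.22 in clone 2) and Lrrc8a (0.26 and 0.37) were also called higher in both clones. The remaining genes of the list did not rise. Sgk1 was called lower in both clones (log2 fold changes -0.20 and -0.54). Slc12a2 was called lower in clone 2 (-0.67) and not called in clone 1, and Akr1b3 averaged at most 0.0318 CPM in any group.

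Carriers of amino acids and peptides in other families were mixed. Of 15 tested, 8 were called higher and 4 lower in clone 1 (37.9% and 38.6% of all tested genes), and 6 higher and 3 lower in clone 2 (37.3% and 37.1% of all; medians 0.16 and 0.25). Slc15a2, a dipeptide carrier, had 0 counts in both clones and 8.92 ± 1.1 CPM in wild-type. Of 7 carriers that load neurotransmitters into vesicles, 2 were tested (medians 0.42 and 0.06), and the others averaged at most 0.136 CPM in any group. Slc18a2 averaged 1.31 CPM in clone 1, 1.15 CPM in clone 2 and 1.33 CPM in wild-type and was called in neither clone. Slc18a1, a vesicular monoamine carrier, averaged 5.56 CPM in clone 1, 3.81 CPM in clone 2 and 3.04 CPM in wild-type and was called higher in clone 1.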

How the data were processed

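The 9 libraries were of polyA-enriched, stranded RNA. The deposited values are counts per gene, whole numbers without normalization, 1 column per library. Per the submitters' processing notes the authors used fastp, Subread and DESeq2 with mm10 or GRCm38; annotation and strand setting: not given in the sources used here. Symbols and positions came from RefSeq (GRCm38.p6) and exon lengths from GENCODE M21, as the union of a gene's exons. The 24 genes without a symbol took at most 0.202% of a library.

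Counts were fitted in R 4.3.3 with edgeR 4.0.16 (filterByExpr with a minimum count of 10, TMM, quasi-likelihood F test, 1 model of 3 groups), with Benjamini-Hochberg adjustment over 13928 genes. Standard errors are approximate, the absolute log2 fold change over the square root of F. Differences of more than 2-fold between clones were tested with glmTreat. Folds from low counts are ratios of summed counts to summed library sizes with 95% binomial intervals. The fit was tested on simulated data.

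Members and gene lists were chosen with earlier results of these data known. Members called with at least a 2-fold difference in either clone and a mean of 5 CPM in some group were given in every library; lower members shown so, the promoters and some list genes were chosen after their values were seen. Of each list, up to 3 genes with the largest mean change were the ones to name; some genes are not reported here.

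Deviations from group means correlated at 0.144 to 0.587 in all 9 pairs of libraries with the same labelled number. In the 18 others they correlated at -0.533 to 0.393, a range that overlaps the first. The numbers were taken to pair the libraries, but the main fit held no term for them. The main p-values therefore ignore this pairing, which entered only as the replicate block, 1 of the alternatives. Alternatives were library totals, DESeq2 size factors, DESeq2 1.42.0, other filters, the replicate number as a block, a fit per contrast, leaving out each library, and subtracting chromosome medians.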

Additional observations from a re-analysis of the deposited data

Results flagged for a closer look

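The 4 transporters that passed the test for more than a 2-fold difference between the clones were set apart because 2 clones with the same targeted gene differed in them (edgeR glmTreat, adjusted over all genes). Slc36a2 was higher in clone 2 by 3.15 on the log2 scale (adjusted p = 0.000401), with 3.32 to 3.925 CPM in clone 2 and 0.287 to 0.538 CPM in clone 1. Slc1a3 differed by -2.37 (adjusted p = 4.55e-06), with 2.66 to 3.22 CPM in clone 2 and 14.9 to 15.3 CPM in clone 1. Slc6a2 differed by -2.27 (adjusted p = 0.000323), with 0.779 to 0.936 CPM in clone 2 and 3.74 to 4.51 CPM in clone 1. Slc43a2 differed by -1.51 (adjusted p = 7.53e-05), with 50.7 to 55.9 CPM in clone 2 and 144 to 157 CPM in clone 1. All 3 libraries of the higher clone exceeded all 3 of the lower in each case. Whether these differences belong to the clones or to their cultures was not tested, since each clone was sampled as 1 set of technical replicates.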

How the results depend on the processing

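Of 10 counts of called transporters, 9 stayed within 1.5 times their value under every scaling, tool, filter, replicate block and fit per contrast that was run. The exception was the number lower in clone 1, which was 3 and became 5 with the replicate block and 5 with each contrast fitted on its own 6 libraries, the added genes being Slc7a11 and Slc7a3. Leaving out each library in turn gave 3 to 5 lower in clone 1, 3 to 5 lower in both clones (5 without wild-type replicate 3), 23 to 25 higher in clone 1, 19 to 21 higher in clone 2 and 17 to 19 higher in both. The block changed the call of 6 single gene results, and Slc38a7 passed the 2-fold test between the clones with it, for 5 transporters in all. Of 105 single gene results, 88 kept their direction and call under every alternative other than the chromosome medians, and 1 reversed: Slc38a9 in clone 2 against clone 1 had a log2 difference of -0.58, and 0.036 after subtraction of its chromosome's median. That subtraction moved 50 of the 105 by more than their standard error, among them Slc38a2 in clone 2 (0.31, then 0.06) and Slc1a5 in clone 2 (-0.76, then -0.35). Leaving out single libraries changed 16 calls. Of the 35 tested transporters, those under 0.5 CPM in all groups rest on few counts, and 31 rows could not be tested at this depth.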
